A study of Mus musculus with 9 samples.

Results

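The miR-29 family is represented here by its 3p arms, mmu-miR-29a-3p, mmu-miR-29b-3p and mmu-miR-29c-3p (written here without the species prefix mmu), measured in the livers of mice on a high fat diet with and without metformin. They were chosen by name, as 3 of the 1881 mouse miRNAs on the array. The rule used no measured value, though earlier results of these data were known. All 3 were detected on 9 of 9 arrays, so none depended on a single group to pass the filter on dim miRNAs. None of the 3 passed the test in any comparison between the groups as analysed here. An alternative scaling called them between metformin and control, along with most tested miRNAs (98 of 143 in all). As analysed here, their mean levels were highest in the high fat diet group, by 1.16-fold to 1.19-fold over control. This depended on the processing. With all spots averaged, miR-29a-3p had a mean log2 level of 1.43 on the high fat diet, below control (1.84) and metformin (1.96). miR-29c-3p was then slightly higher with metformin than on the high fat diet (0.21 against 0.19).

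miRNAs are short RNAs that guide Argonaute proteins to messenger RNAs, mostly through pairing of the seed near their 5′ end, and so lower the output of those messengers. The miR-29 family is best known for repressing fibrillar collagens and other proteins of the extracellular matrix, and in liver fibrosis its levels fall in hepatic stellate cells of mice and humans. In cultured adipocytes and liver cells, and in rodent models of diabetes, the same family has also been tied to weaker insulin signalling. Metformin, a first-line treatment of type 2 diabetes, lowers the output of glucose by the liver.

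All mice were male C57BL/6J, an inbred strain, sampled at 20 weeks of age, and each array measured a pool of livers from 4 mice of one group. The metformin group was fed for 17 weeks, from 3 weeks of age, on chow in which fat gave 45% of the energy, and was given metformin by stomach tube at 3 mg per kg per day over the last 5 of those weeks. The high fat diet group was fed likewise and was given saline by the same route for those 5 weeks. The control group ate chow for 17 weeks, and whether it was given a vehicle is not stated in the sources used here. Each group had 3 pools, measured on 1-colour Agilent mouse miRNA arrays. Errors and p-values here describe pools, and how far single mice of a pool differed is not known. In whole liver, fewer cells of a type and less RNA per cell cannot be told apart either.

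The 3 arms share one seed, and their mature sequences are printed to show how little separates them. Capitals mark the seed, bases 2 to 8. Sequences and coordinates are those of RefSeq on GRCm38.p6, in which all 7 of 7 arms of the family were matched.
miR-29a-3p: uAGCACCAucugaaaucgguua
miR-29b-3p: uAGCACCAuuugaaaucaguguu
miR-29c-3p: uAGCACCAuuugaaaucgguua
Counted from the 5′ end, miR-29a-3p and miR-29c-3p differ by 1 base of 22 (C10U, with miR-29a-3p first). miR-29a-3p and miR-29b-3p differ at 4 of 22 aligned positions (C10U, G18A, U21G and A22U). miR-29b-3p and miR-29c-3p differ at 3 (A18G, G21U and U22A), and miR-29b-3p is 23 bases long, 1 more than either other arm. The seed AGCACCA occurred in 3 of 1679 mature names of the table, and those 3 were the arms studied here. The files give no probe sequences, so how far a probe for one arm also binds another could not be measured, and levels of miR-29a-3p and miR-29c-3p may share signal.

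The arms come from 4 hairpins at a pair of loci. Mir29a and Mir29b-1 lie 275 bases apart on the minus strand of chromosome 6, with the miR-29a-3p arm at chr6:31062673-31062694. Mir29b-2 and Mir29c lie 426 bases apart on the plus strand of chromosome 1, with the miR-29c-3p arm at chr1:195037600-195037621. The hairpins Mir29b-1 (chr6:31063023-31063093) and Mir29b-2 (chr1:195037040-195037120) give the same miR-29b-3p, shown in capitals, so that its level cannot be assigned to either locus.
Mir29b-1: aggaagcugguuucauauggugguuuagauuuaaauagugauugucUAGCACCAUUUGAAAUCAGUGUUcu
Mir29b-2: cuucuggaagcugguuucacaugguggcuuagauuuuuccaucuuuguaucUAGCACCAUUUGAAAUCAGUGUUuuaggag
The opposite, 5p arms of the same hairpins were hardly seen. miR-29a-5p, miR-29b-1-5p and miR-29b-2-5p were detected on 0 of 9 arrays by the scanner software, and miR-29c-5p on 1 of 9, a metformin array. The highest median intensity of any of their probes on any array was 8.73, against a local background between 16.1 and 20.9 that had been subtracted. They were not tested, and their levels have only an upper bound.

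The arrays differed in a way that bears on every value. On 6 of 9 arrays, spots in strips of columns at the left or right edge had lost their signal, also for bright probes. From column 161 to the right edge this held for 100% of the spots of bright probes on each of these arrays. Near the inner margin of a strip, other spots of the same columns kept their signal. Whole strips were left out, and they were found on metformin 2 (31.1% of the miRNA spots), on high fat diet 1 and 3 (53.6% and 33.6%) and on control 1, 2 and 3 (43.8%, 43.5% and 41.1%), counted by replicate number. The values with all spots are given after those without the strips. Here all spots means the strips included, but without spots marked non-uniform or as outliers among the spots of their probe. Each level is the log2 of a probe's median spot intensity over the array's 75th percentile, taken over the probes detected on all arrays, so that 0 is that percentile. It lay at an intensity between 193 and 323. Between 129 and 143 of the 143 tested miRNAs were detected per array, and 0 spots were saturated. Across miRNAs, which are not independent of each other, arrays correlated at 0.987 to 0.998 within groups and 0.977 to 0.995 between groups. Levels of different probes were not set against each other, since a probe's brightness also depends on its sequence.

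**Figure D1:**
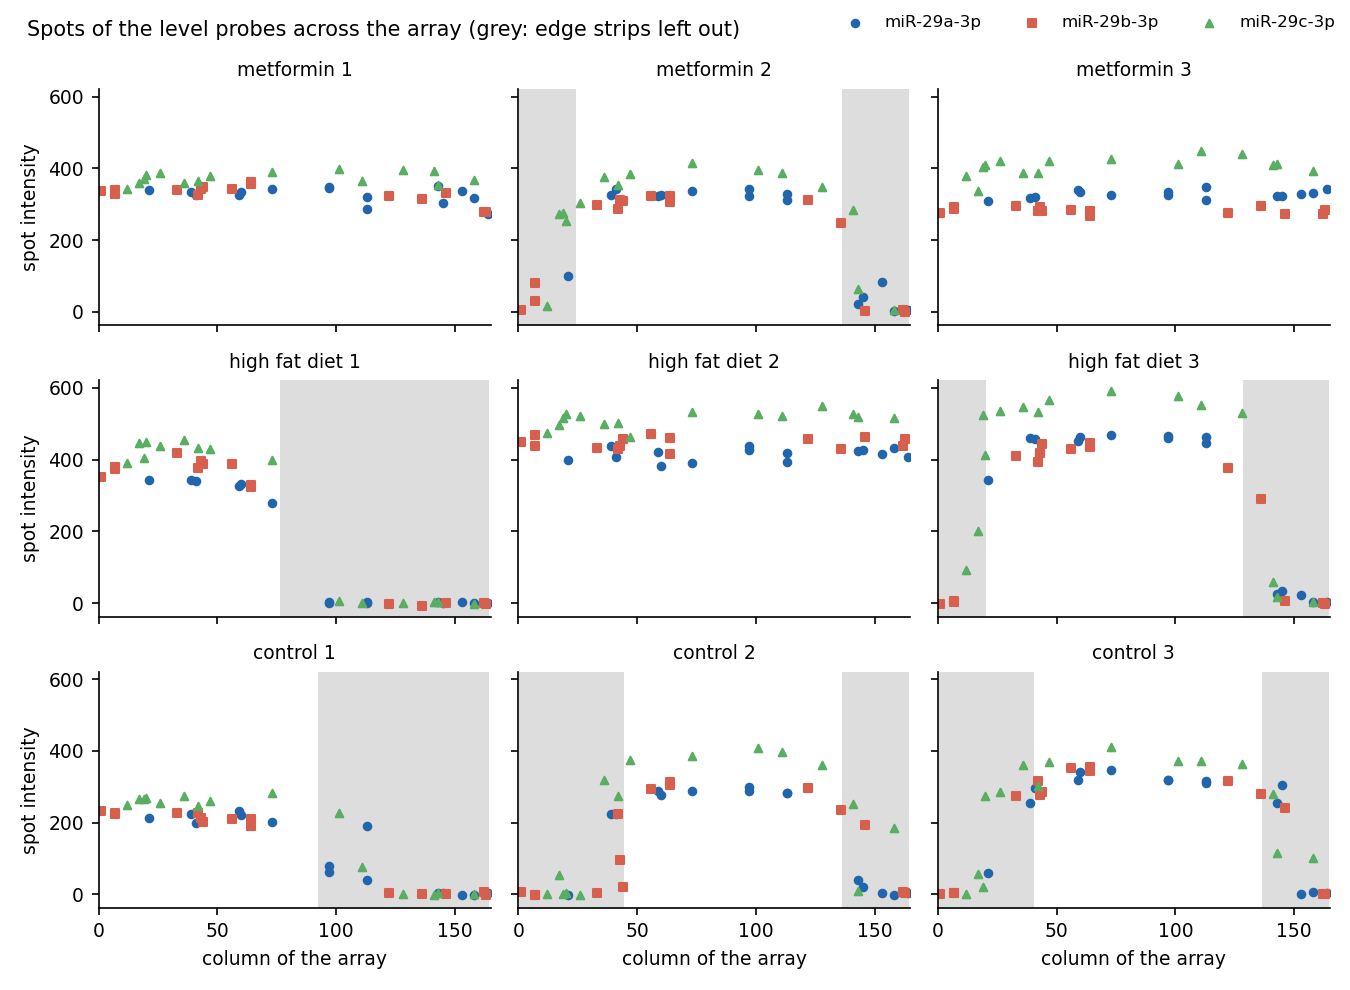
Intensity of single spots (background subtracted, linear axis) of the probe used for each miR-29 3p arm against the column of the array, for the metformin arrays (top), high fat diet arrays (middle) and control arrays (bottom). Grey bands are the edge strips left out. Spots outside the bands lie near one level on each array, and inside the bands many fall to near 0.

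The strips reached the miR-29 probes directly. Each probe had 15 spots per array, of which 6 to 15 remained for miR-29a-3p and 5 to 15 for miR-29b-3p and miR-29c-3p. Up to 9, 8 and 7 of the 15 spots for miR-29a-3p, miR-29b-3p and miR-29c-3p lay under 50% of the array's median for that probe. Among the spots that remained, the coefficient of variation was 2.49% to 8.39% for miR-29a-3p, 3.20% to 11.0% for miR-29b-3p and 4.04% to 9.58% for miR-29c-3p. On metformin 1, metformin 3 and high fat diet 2, the 3 arrays with no strips, each arm was lower with metformin: 0.41 and 0.46 against 0.59 for miR-29a-3p, 0.42 and 0.24 against 0.68 for miR-29b-3p, and 0.56 and 0.79 against 0.89 for miR-29c-3p. This sets 2 arrays against 1 and carries no test.

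miR-29a-3p, from the Mir29a hairpin on chromosome 6, had log2 levels of 0.41, 0.50 and 0.46 in metformin pools, 0.60, 0.59 and 0.51 in high fat diet pools, and 0.17, 0.38 and 0.50 in control pools. The high fat diet arrays were all above the metformin arrays and, narrowly, above the control arrays (0.51 against 0.50 at the nearest), while metformin and control arrays overlapped. The means were 0.46 ± 0.04 with metformin, 0.57 ± 0.05 on the high fat diet and 0.35 ± 0.17 in controls (SD, n = 3 pools each). Before scaling, the probe's median intensity was 334, 326 and 326 in metformin pools, 336, 420 and 460 in high fat diet pools, and 218, 287 and 319 in control pools. The order of the means was thus high fat diet, metformin, control, and no pair of groups differed past the test's threshold.

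miR-29b-3p, which both loci encode, had log2 levels of 0.42, 0.42 and 0.24 in metformin pools, 0.78, 0.68 and 0.39 in high fat diet pools, and 0.18, 0.43 and 0.49 in control pools. The high fat diet group overlapped both other groups through replicate 3. The means were 0.36 ± 0.10 with metformin, 0.62 ± 0.20 on the high fat diet and 0.37 ± 0.16 in controls (SD, n = 3 pools each). The metformin mean was 0.0048 below the control mean on the log2 scale, and the high fat diet mean stood above both without passing the test. Its unscaled median intensity was 336, 310 and 281 with metformin, 379, 448 and 425 on the high fat diet, and 219, 298 and 316 in controls.

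miR-29c-3p, from Mir29c on chromosome 1, had log2 levels of 0.56, 0.72 and 0.79 in metformin pools, 0.96, 0.89 and 0.76 in high fat diet pools, and 0.46, 0.80 and 0.72 in control pools. All 3 groups overlapped. The means were 0.69 ± 0.12 with metformin, 0.87 ± 0.10 on the high fat diet and 0.66 ± 0.18 in controls (SD, n = 3 pools each), in the same order as for miR-29a-3p. Its unscaled median intensity was 371, 381 and 411 with metformin, 431, 519 and 549 on the high fat diet, and 265, 384 and 371 in controls.

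The same arrays lay at the extremes for each of the 3 arms. High fat diet 1 had the highest level and control 1 the lowest of the 9 arrays in all 3. These are the arrays with the most spots left out, 53.6% and 43.8%, and control 1 also had the lowest scaling percentile, an intensity of 193. The part that the strips play in these levels was not tested. Within the high fat diet group, replicate 3 had the lowest level for each arm.

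**Figure D2:**
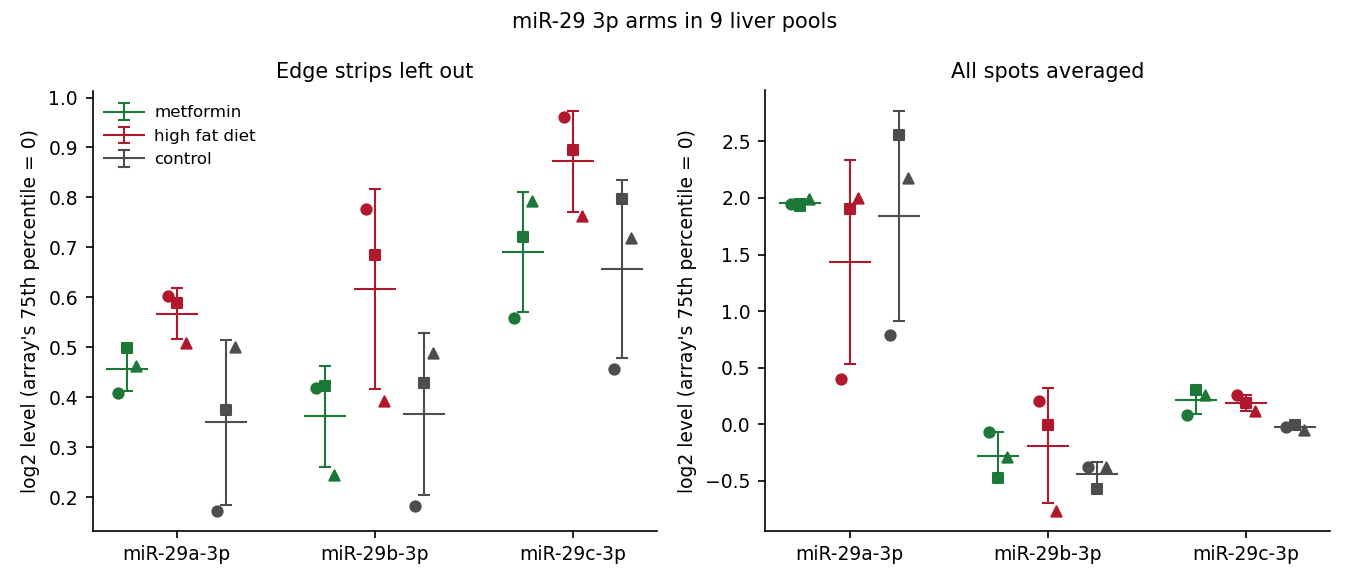
Log2 level of each miR-29 3p arm per array, with the edge strips left out (left) and with all spots averaged (right, on its own axis), for metformin, high fat diet and control pools. The right panel leaves out spots marked non-uniform or as outliers. Circles, squares and triangles are replicates 1, 2 and 3 of a group, and bars are the mean ± SD of 3 pools. In the left panel the high fat diet mean is the highest for every arm, with overlap for miR-29b-3p and miR-29c-3p. In the right panel miR-29a-3p is read by its brighter probe, and high fat diet 1 (0.40) and control 1 (0.79) lie far below the other arrays.

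The diet comparison asks how 17 weeks of high fat feeding changed each arm relative to chow. The difference for miR-29a-3p was 0.22 on the log2 scale (SE 0.098, 95% interval 0.00037 to 0.43, 1.16-fold), with an adjusted p of 0.139 by limma with Benjamini-Hochberg adjustment over 143 miRNAs. That for miR-29b-3p was 0.25 (SE 0.12, interval -0.02 to 0.53, 1.19-fold, limma adjusted p = 0.173). For miR-29c-3p it was 0.22 (SE 0.11, interval -0.03 to 0.47, 1.16-fold, limma adjusted p = 0.194). Thus 0 of the 3 arms passed, against 20 of 143 tested miRNAs (14.0%), 6 of them higher (4.2%). The unadjusted limma p of miR-29a-3p was 0.0497, and those of miR-29b-3p and miR-29c-3p were 0.0691 and 0.0841. Of all tested miRNAs 51 (35.7%) had an unadjusted p under 0.05.

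The intervals, which are not adjusted for the number of miRNAs tested, ended at 1.35-fold for miR-29a-3p, 1.44-fold for miR-29b-3p and 1.38-fold for miR-29c-3p, so that larger rises lie outside them. The differences of the 3 arms lay above the median of all tested miRNAs, 0.03, and 30, 23 and 32 of the 143 tested miRNAs had a larger difference than miR-29a-3p, miR-29b-3p and miR-29c-3p. A positive difference was found in 78 of 143 (54.5%). Groups that did not overlap, with the high fat diet above control, as seen for miR-29a-3p alone of the 3, were found for 31 of 143 (21.7%). Two-sided exact permutation tests of the 3 arrays against 3 gave p = 0.1 for miR-29a-3p, 0.3 for miR-29b-3p and 0.2 for miR-29c-3p, where 0.1 is the smallest value that this design allows.

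How far control 1 moved these differences depended on the scaling. Without it, and with the scaling of all arrays kept, they were 0.13 for miR-29a-3p, 0.16 for miR-29b-3p and 0.12 for miR-29c-3p. With the scaling percentile recomputed over the 206 probes then detected on all arrays, in place of 187, they were 0.23, 0.26 and 0.21, while the median of all tested miRNAs was 0.10, in place of 0.03. Relative to that median the 3 differences were 0.12, 0.15 and 0.11 without control 1 in either scaling, against 0.19, 0.22 and 0.19 with it. The high fat diet arrays lay in row 1 of a slide and control 1 and 2 in row 2 of it, while control 3 was alone on a second slide, so no row of a slide holds both groups. On the first slide, which holds the 3 high fat diet arrays and control 1 and 2, the fit with the slide as a block gave 0.29, 0.31 and 0.25 (limma adjusted p = 0.0552, 0.102 and 0.158). With the slide row as a block, linked through the metformin arrays in both rows and without control 3, the differences were 0.36, 0.23 and 0.44 (limma adjusted p = 0.263, 0.561 and 0.263).

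The drug comparison sets metformin against saline in mice on the same diet. Each arm had a lower mean with metformin, by -0.11 on the log2 scale for miR-29a-3p (SE 0.098, 95% interval -0.33 to 0.11, limma adjusted p = 0.674). The difference was -0.26 for miR-29b-3p (SE 0.12, interval -0.53 to 0.02, limma adjusted p = 0.435) and -0.18 for miR-29c-3p (SE 0.11, interval -0.43 to 0.07, limma adjusted p = 0.584). With limma 0 of the 3 arms passed, against 2 of 143 tested miRNAs (1.4%), both of them higher with metformin. The unadjusted p was 0.284, 0.0647 and 0.138, while 13 of 143 (9.09%) had an unadjusted p under 0.05. A fall of more than 1.26-fold for miR-29a-3p, 1.44-fold for miR-29b-3p or 1.35-fold for miR-29c-3p lies outside the intervals.

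Against all tested miRNAs, the lower values with metformin were not rare. A negative difference was found for 90 of 143 (62.9%), with a median of -0.06, and 45, 11 and 19 of the 143 lay below miR-29a-3p, miR-29b-3p and miR-29c-3p. All metformin arrays were below all high fat diet arrays for miR-29a-3p, as for 17 of 143 miRNAs (11.9%). Two-sided exact permutation tests gave p = 0.1, 0.3 and 0.2 for the 3 arms. Row 1 of the slide held metformin 1 and the 3 high fat diet arrays, and within it the differences were -0.16, -0.20 and -0.31, each from 1 array against 3. Without high fat diet 1 the difference of miR-29a-3p was -0.07, and without metformin 1 that of miR-29c-3p was -0.12.

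Metformin arrays against chow controls asks where the treated mice lay relative to mice that had never had the diet. The difference was 0.11 for miR-29a-3p (interval -0.11 to 0.32, limma adjusted p = 0.542), -0.0048 for miR-29b-3p (interval -0.28 to 0.27, limma adjusted p = 0.977) and 0.03 for miR-29c-3p (interval -0.22 to 0.28, limma adjusted p = 0.880). The groups overlapped for each arm. With limma 0 of the 3 passed, against 2 of 143 tested miRNAs (1.4%), and 0 of the 3 had an unadjusted p under 0.05, against 30 of 143 (21.0%). The exact permutation p was 0.5, 0.8 and 0.8. Scaled on the percentile over all probes, dim ones included, all 3 arms passed (differences of 0.92, 0.81 and 0.84, limma adjusted p = 0.0141, 0.0233 and 0.0179), with 98 of 143 miRNAs called and a median of 0.80 over all of them. In row 2, which held 2 metformin and 2 control arrays, the differences were 0.21, 0.03 and 0.13. A p over the threshold does not show that treated mice were at the control level, and the intervals allow differences of about the size seen between high fat diet and control. The 3 comparisons share arrays, so their values are not independent of each other.

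**Figure D3:**
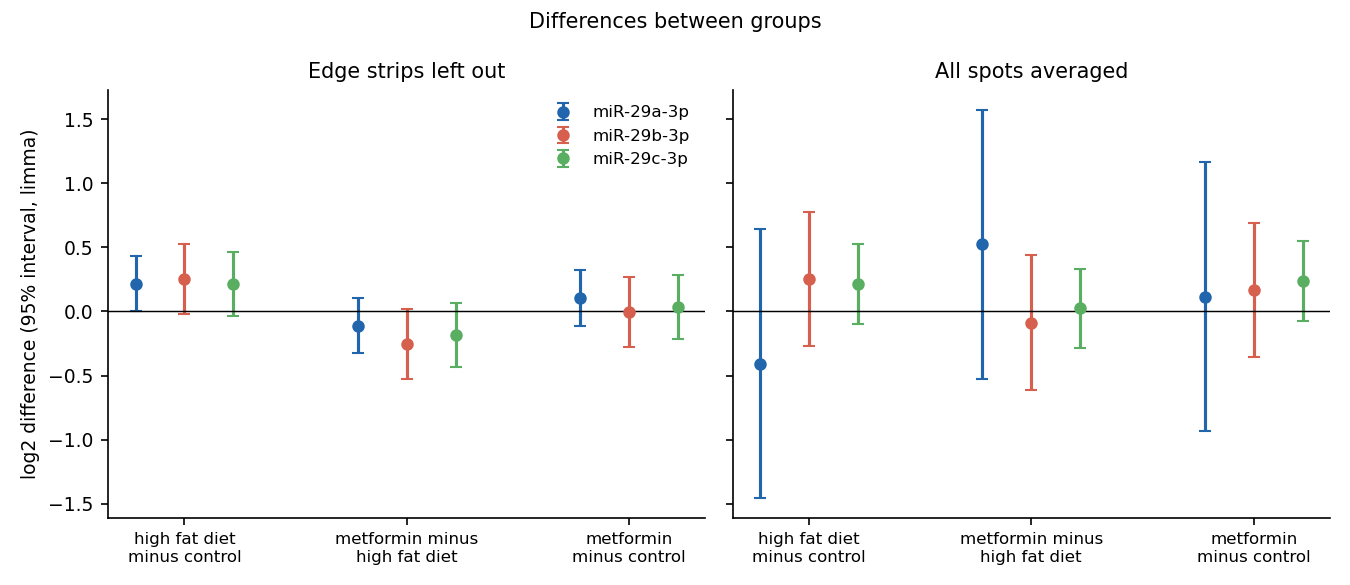
Log2 difference of each miR-29 3p arm in the 3 comparisons, with the 95% interval from limma (bars), with the edge strips left out (left) and with all spots averaged (right). The right panel leaves out spots marked non-uniform or as outliers. With the strips left out the intervals all lie within -0.53 to 0.53 and, but for miR-29a-3p between high fat diet and control, cover 0. With all spots the interval of miR-29a-3p between high fat diet and control runs over -1.46 to 0.64.

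**Figure D4:**
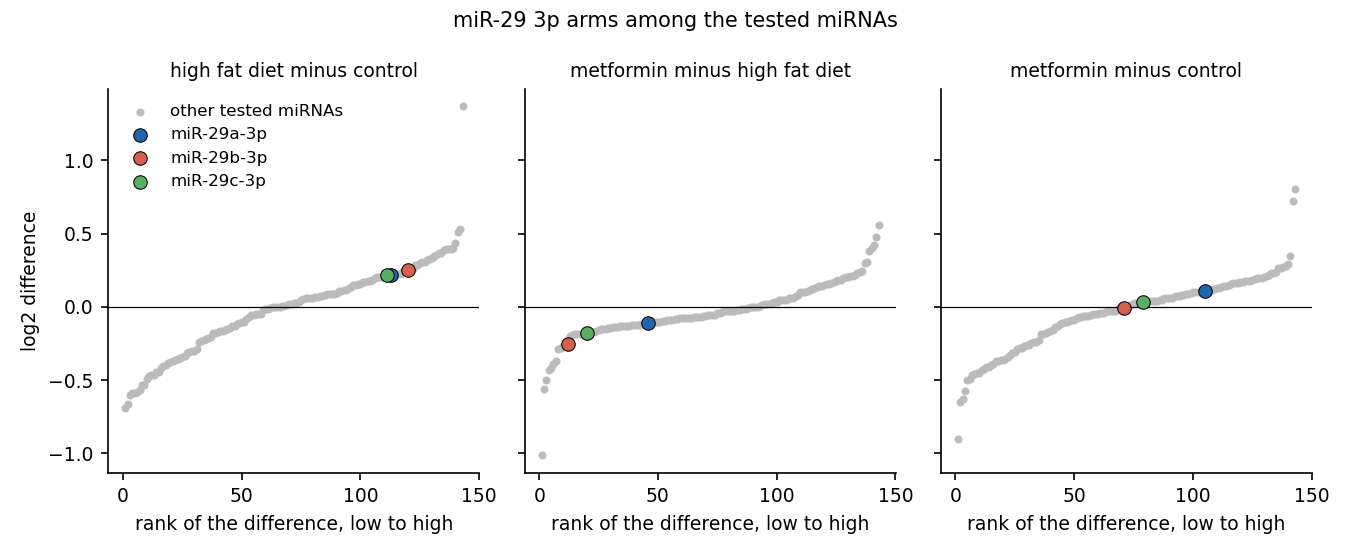
Log2 differences of the 143 tested miRNAs ranked low to high in each comparison (edge strips left out), with the miR-29 3p arms in colour. Between high fat diet and control the 3 arms lie in the upper part without reaching the end, and between metformin and high fat diet miR-29b-3p and miR-29c-3p lie near the lower end with 11 and 19 miRNAs below them.

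Each arm had a second probe, which gave a reading from other spots of the same arrays. The second probe of miR-29c-3p read 0.24, 0.35 and 0.46 with metformin, 0.59, 0.61 and 0.39 on the high fat diet, and 0.10, 0.37 and 0.43 in controls. Its differences, 0.23 between high fat diet and control and -0.18 between metformin and high fat diet, were close to those of the first probe (limma adjusted p = 0.184 and 0.607). The second probe of miR-29a-3p was the brighter one, with median intensities of 911 to 1900, and was left out because only 2 of its 15 spots on high fat diet 1 were left once the strip and spots marked non-uniform were taken out. Read all the same, it gave 2.43, 2.58 and 2.53 with metformin, 2.55, 2.60 and 2.56 on the high fat diet, and 2.24, 2.52 and 2.44 in controls. Its differences were 0.17 and -0.06 (limma adjusted p = 0.217 and 0.827), and again control 1 was the lowest array. The second probe of miR-29b-3p had a median intensity of 8.85 to 17.5, was detected on 6 of 9 arrays and was set to the floor on metformin 2 and high fat diet 3, so no direction was read from it.

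With all spots averaged, the strips included, miR-29a-3p was represented by the brighter probe and read 1.94, 1.93 and 1.99 in metformin pools, 0.40, 1.91 and 2.00 in high fat diet pools, and 0.79, 2.56 and 2.18 in control pools. High fat diet 1 and control 1 stood far below the rest, and on these 11 and 9 of the probe's 15 spots lay under 50% of the median. The mean intensity there was 284 and 325. On control 2 and 3, with 3 and 4 such spots, it was 1189 and 1200. Spots marked non-uniform or as outliers were left out of these means, and the part that this plays was not tested. The difference between high fat diet and control then had the opposite sign, -0.41 (SE 0.47, limma adjusted p = 0.630), and so did that between metformin and high fat diet, 0.52 (limma adjusted p = 0.723). miR-29b-3p kept its sign in both, with 0.25 and -0.09. For miR-29c-3p the high fat diet arrays (0.26, 0.19 and 0.12) and the metformin arrays (0.08, 0.30 and 0.26) all lay above the control arrays (-0.02, -0.0050 and -0.05). Such a gap to the controls was found for 5 of 139 miRNAs (3.6%) on the high fat diet and 17 of 139 (12.2%) with metformin. The differences of miR-29c-3p were 0.21 between high fat diet and control (limma adjusted p = 0.401) and 0.02 between metformin and high fat diet (limma adjusted p = 0.972). With all spots 9 of 139 miRNAs (6.47%) passed between high fat diet and control, and none of them was a miR-29 arm.

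Other miRNAs tied to matrix and fibrosis, a list of 20 of which 15 were tested, were set beside the arms. The list was not split by the direction of their roles. Between high fat diet and control 2 of the 15 rose and 0 fell, against 6 of 143 (4.2%) that rose among all tested miRNAs and 14.0% called in either direction. The median difference was 0.15, against 0.03 over all tested miRNAs and 0.22 to 0.25 for the miR-29 arms. miR-34a-5p, a miRNA induced by p53 that represses the deacetylase Sirt1, had log2 levels of -1.08, -1.10 and -1.17 with metformin, -0.27, -0.48 and -0.91 on the high fat diet, and -1.84, -1.91 and -2.02 in controls. It rose by 1.37 (limma adjusted p = 0.000265), and its 3 groups did not overlap. The adjusted p was 0.0745 with the slide row as a block, 0.588 with the median of all spots and 0.383 in the deposited table. miR-199a-3p, abundant in hepatic stellate cells, rose by 0.31 (limma adjusted p = 0.0301), with -2.17, -2.25 and -2.15 in metformin, -2.13, -2.10 and -2.02 in high fat diet and -2.37, -2.36 and -2.44 in control livers. Its adjusted p was 0.0677, 0.0866 and 0.0864 without high fat diet 1, 2 and 3 in turn and, with the scaling kept, 0.0617 and 0.0657 without control 1 and 2. It was 0.140 with levels centred on the median of the tested miRNAs, 0.158 with all spots averaged, 0.153 in the columns kept on all arrays, 0.613 with normexp background correction, 0.0635 with the percentile over all probes, 0.565 in the deposited table, 0.0602 with only those 2 groups and 0.350 with the row block. miR-21a-5p, which promotes fibrosis in several organs of mice, differed by 0.01 (limma adjusted p = 0.976).

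Between metformin and high fat diet 0 of the 15 passed with limma, against 1.4% of all tested miRNAs. A negative difference was found for 11 of the 15, against 62.9% of all, and the median was -0.11, against -0.06 over all tested miRNAs. The largest sizes were -0.56 for miR-34a-5p, -0.41 for miR-199b-5p and -0.28 for miR-146a-5p, with limma adjusted p of 0.126, 0.435 and 0.435. miR-34a-5p did pass without high fat diet 3 (-0.74, limma adjusted p = 0.00657, or 0.00707 with the scaling kept). It also passed with only those 2 groups (limma adjusted p = 0.0448). Between metformin and control 1 of the 15 passed, against 2 of 143 (1.4%). It was miR-34a-5p, which rose by 0.80 (limma adjusted p = 0.0143), a call that was lost without any one of the metformin arrays (adjusted p = 0.0702, 0.0985 and 0.0768) and with all spots averaged (adjusted p = 0.203). Its adjusted p was 0.820 with the median of all spots, 0.0905 with normexp, 0.0630 with quantile normalization, 0.0606 without the filter, 0.713 in the deposited table and 0.0595 with the row block.

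A list of 24 miRNAs tied to insulin and glucose, such as the let-7 family, miR-103-3p and miR-107-3p, had 15 tested members. Between high fat diet and control 0 of the 15 passed with limma, against 14.0% of all tested miRNAs. All 15 had a positive difference, against 54.5% of all, with a median of 0.09 against 0.03. The count of positive differences depended on the scaling, with 10 of 15 when levels were centred on the median of the tested miRNAs and 4 of 15 with all spots averaged. Its largest differences were 0.33 for miR-152-3p, 0.24 for miR-378a-3p and 0.22 for miR-26b-5p (limma adjusted p = 0.0624, 0.102 and 0.222). Between metformin and high fat diet 0 of the 15 passed, against 1.4% of all, with a median of -0.02 against -0.06 and at most -0.15 for miR-223-3p, 0.14 for let-7b-5p and -0.14 for miR-126a-3p. Between metformin and control 0 of the 15 passed, again against 1.4% of all, with a median of 0.10 against -0.0037 and at most 0.23 for miR-107-3p and 0.20 for both miR-152-3p and miR-497a-5p.

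Marker miRNAs of liver cell types were set beside the arms, and the cell makeup of the pools was not measured. All 4 hepatocyte markers, miR-122-5p, miR-192-5p, miR-194-5p and miR-148a-3p, were tested, 0 passed in any comparison, and their summed level was 107 to 120 times the scaling percentile with metformin, 98.0 to 110 on the high fat diet and 104 to 117 in controls. Of 6 markers of stellate and mesenchymal cells 3 were tested, while miR-143-3p, miR-145a-5p and miR-214-3p were each detected on 0 of 9 arrays. The summed level of the 3 was 0.334 to 0.348 with metformin, 0.360 to 0.426 on the high fat diet and 0.305 to 0.315 in controls. A sum adds levels of different probes, so it leans on the brighter ones. Group means stood with high fat diet above metformin above control for miR-29a-3p, miR-29c-3p and 46 of 143 tested miRNAs in all (32.2%). Among them were the 3 tested stellate markers, the hepatocyte markers miR-194-5p and miR-148a-3p and the endothelial marker miR-126a-3p. The other stellate markers beside miR-199a-3p, miR-199a-5p and miR-199b-5p, had differences of 0.26 and 0.44 between high fat diet and control (limma adjusted p = 0.0959 and 0.139). Each of these was detected on only 8 of 9 arrays, while miR-199a-3p was detected on 9 of 9. The endothelial marker miR-126a-3p differed by 0.18, and its level was 2.69 to 3.28 with metformin, 3.13 to 3.19 on the high fat diet and 2.62 to 2.93 in controls. Of the 6 leukocyte markers 3 were tested, with a summed level of 0.304 to 0.332 with metformin, 0.332 to 0.399 on the high fat diet and 0.308 to 0.392 in controls. The erythroid marker miR-451a, 1 of 3 tested, was at 0.260 to 0.303 with metformin, 0.504 to 0.695 on the high fat diet and 0.337 to 0.915 in controls. None of the 5 biliary markers was tested, since they were not detected on all arrays of any group. The part of these cell types in the miR-29 levels was not tested.

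The pattern of each arm over the 9 arrays was set beside that of the 142 other tested miRNAs by the root mean square difference of log2 levels, each centred on its own mean. For miR-29a-3p the nearest outside the family were miR-27b-3p (0.0480), miR-199a-5p (0.0618) and miR-194-5p (0.0680), against a median of 0.158 over all. For miR-29b-3p they were miR-101a-3p (0.0813), miR-101c (0.105) and miR-30e-5p (0.108), against a median of 0.205. For miR-29c-3p they were miR-106b-5p (0.0552), miR-27b-3p (0.0857) and miR-126a-3p (0.0873), against a median of 0.175. The arms were near each other without being each other's nearest: miR-29a-3p ranked 2 of 142 for miR-29c-3p and 4 of 142 for miR-29b-3p, miR-29c-3p ranked 8 of 142 for each other arm, and miR-29b-3p ranked 28 for miR-29a-3p and 19 for miR-29c-3p. All such distances share the arrays' scaling and strips, and the measure favours miRNAs that vary little.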

How the data were processed

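Liver miRNA of 9 pools (3 groups of 3, each of 4 mice) was measured on 1-colour arrays. Spot intensity came, per the file headers, from Agilent Feature Extraction 11.5.1.1, background subtracted but unscaled across arrays. The submitters' processing notes name version 10.7, and which is right was not resolved. The authors deposited a further table of log2 values. Checked against the scanner files, it was the log2 of the total signal shifted by 1 constant per array (-2.35 to -0.71), with 0 to 6 of 1881 miRNAs departing by over 0.001. Its column medians were -5.44, -4.81 and -5.43 for metformin, -4.03, -5.39 and -5.67 for high fat diet and -4.12, -4.38 and -4.83 for control. How they were chosen is not stated in the sources used here. The headers name an older mouse build than the RefSeq table, whose coordinates are GRCm38.p6.

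Edge strips were found from bright probes (80th percentile of their spots over an intensity of 100), whose spots were taken as lost under 50% of that percentile. Going inward by 4 columns at a time, columns were dropped until 2 steps in a row had under 10% of lost spots. A probe's value was the median over its other spots, leaving out those marked non-uniform. Probes left with under 3 spots on some array (425) were not used. Scaling divided each value by the 75th percentile, on its array, of the 187 probes detected on all arrays (over a share of 0.5 of spots well above background), floored at the 1st percentile of detected values (0.0406) and put on the log2 scale. A miRNA was read by its probe of highest mean and tested where detected on all arrays of a group (143 miRNAs).

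limma 3.58.1 in R 4.3.3 fitted 3 group means over 9 arrays, two-sided, with Benjamini-Hochberg adjustment and a threshold of 0.05. The number of arrays limits the precision (median SE 0.12), and p-values apply to pools. The fit was tested on simulated levels with planted differences larger than those of the arms in the main analysis. The search for strips was tested on arrays with planted strips. Neither shows how well differences of the arms' size are found. Alternatives covered the strips, background correction, scaling, filter, probes, the deposited table, blocks and leaving out each array. Normexp was run on the median, in place of the mean, spot signal. Replicate numbers did not pair the arrays (correlations of same-numbered deviations -0.24 to 0.43). Named miRNAs were the 3 arms, the other family arms, the 3 nearest in pattern to each arm and, of each list, those that passed or otherwise the 3 of largest size. miR-21a-5p was named after its value was seen. The members, lists and settings were chosen with earlier results of these data known.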

Additional observations from a re-analysis of the deposited data

How the results depend on the processing

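No miR-29 arm passed the test between high fat diet and control, or between metformin and high fat diet, under any alternative. The lowest adjusted p over the alternatives was 0.0549, 0.0767 and 0.0767 for miR-29a-3p, miR-29b-3p and miR-29c-3p between high fat diet and control, and 0.514, 0.257 and 0.377 between metformin and high fat diet. The number of arrays and the strips limit what can be seen. Between high fat diet and control, miR-29a-3p turned to -0.41 with the mean of all spots, -0.38 with their median and -0.10 in the deposited table, and miR-29b-3p to -0.036 with its other probe, which lay near background. Of the differences that kept their sign with all arrays in, those smaller by over 1.5 times were 0.12 and 0.15 for miR-29a-3p and miR-29b-3p with quantile normalization, 0.11 for miR-29b-3p with the mean of its probes and 0.025 for miR-29c-3p in the deposited table. Those larger by over 1.5 times were 0.76, 0.79 and 0.75 for the 3 arms with the percentile over all probes, 0.66 and 0.42 for miR-29b-3p and miR-29c-3p with the median of all spots, and 0.36 and 0.44 for miR-29a-3p and miR-29c-3p with the row block. The 20 miRNAs called became 9 with the mean and 0 with the median of all spots (20 at an unadjusted p under 0.05), 7 in columns kept on all arrays, 1 with the percentile over all probes, 0 in the deposited table (12 unadjusted), 8 with only those 2 groups, 39 with the slide and 0 with its row as a block (30 unadjusted). Between metformin and high fat diet, miR-29a-3p turned to 0.52 with the mean and 2.38 with the median of all spots, 0.16 with the percentile over all probes, 0.012 with quantile normalization and 0.11 in the deposited table. miR-29b-3p turned to 0.016 with the percentile over all probes, and miR-29c-3p to 0.024 with the mean of all spots and 0.091 with that percentile. Differences that kept their sign but moved by over 1.5 times were -0.03 and -0.10 for miR-29a-3p and miR-29c-3p with median centring, -0.06 and -0.17 for miR-29a-3p and miR-29b-3p with the other probe, -0.087 and -0.14 for miR-29b-3p with the mean of all spots and quantile normalization, and -0.31 for miR-29c-3p with the row block. The 2 called became 5 with only those 2 groups, 1 with the slide block and 0 in 12 settings, with 1 to 19 at an unadjusted p under 0.05: mean and median of all spots, looser strips, columns kept on all arrays, normexp, percentile over all probes, quantile, no filter, mean of probes, the deposited table, the row block and the replicate block. Scaling on the percentile over all probes moved the median of all tested miRNAs to 0.56, 0.21 and 0.80 in the 3 comparisons. Between metformin and control it called 98 miRNAs and put the arms past the threshold at 0.92, 0.81 and 0.84 (adjusted p = 0.0141, 0.0233 and 0.0179), which is 0.11, 0.0022 and 0.04 above that median. There the 2 called became 0 with the mean and median of all spots, with normexp and in the deposited table (15, 11, 34 and 10 unadjusted), 1 in columns kept on all arrays and without the filter, 7 with the slide block, 5 with the row block and 4 with median-centred levels. miR-29b-3p, near 0, turned to 0.17 and 0.37 with the mean and median of all spots, 0.0026 with stricter strips, 0.0097 with quantile, 0.056 and 0.028 with slide and row blocks and 0.0058 with median centring, and miR-29c-3p to -0.15 in the deposited table. The cause of these changes was not tested. Leaving out each array in turn, with the scaling recomputed or kept (the second chosen after seeing the data, as were the other probe and median centring), gave 0.13 to 0.29, 0.16 to 0.36 and 0.12 to 0.30 for the 3 arms between high fat diet and control with 4 to 40 calls (4 without high fat diet 2, 6 without high fat diet 1, 8 without control 1, 13 without metformin 2, 40 without control 3). It gave -0.14 to -0.07, -0.37 to -0.18 and -0.24 to -0.12 with 0 to 3 calls (0 without high fat diet 2 or any one metformin array, 1 without high fat diet 3 or control 3) between metformin and high fat diet, and 0.02 to 0.18, -0.097 to 0.056 and -0.066 to 0.10 with 1 to 8 calls (1 without any one metformin array, 4 without control 1 or, with the scaling kept, control 2, and 8 without control 3) between metformin and control. With the replicate number as a block, which the arrays did not bear out as a pairing, the differences of the arms were 0.22, 0.25 and 0.22 between high fat diet and control, no call on an arm changed, and 22, 0 and 3 miRNAs were called in the 3 comparisons.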
